A study of Mus musculus with 59 samples.

Results

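Chemokines are small secreted proteins that direct the movement of leukocytes, and chemokine receptors are the G protein-coupled receptors that read them. All 60 genes with a chemokine or chemokine receptor symbol (Ccl, Cxcl, Xcl and Cx3cl ligands, Ccr, Cxcr, Xcr and Cx3cr receptors and the atypical receptors Ackr) were taken from the 21706 genes of the mouse uterus tables by symbol alone, with no measured value in the choice. They are 38 ligands and 22 receptors, 4 of the receptors being atypical ones, which bind and remove ligands without coupling to G proteins. Chemokine signalling is redundant: Cxcl1, Cxcl2, Cxcl3 and Cxcl5 share the neutrophil receptor Cxcr2, Ccl3 and Ccl6 act on Ccr1 of myeloid cells, whereas Ccl20 has Ccr6 as its receptor. In the uterus, mating and ovarian steroids are known to change the leukocyte content, with neutrophils entering around the time of insemination and leaving as progesterone rises. Epithelial cells are known sources of Cxcr2 ligands, of Ccl20 and Ccl28, and of the mucosal chemokine Cxcl17.

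RNA was sequenced from 59 libraries of 29 females. Knockout (KO) females were epiERa-/- (Esr1f/- Wnt7aCre/+), with 1 floxed and 1 null allele of the oestrogen receptor gene Esr1 and a Cre under Wnt7a control, which acts in uterine epithelium. Control females were Esr1f/-, so both genotypes carried the null allele and had 1 copy of Esr1 at most outside the epithelium. Virgin females of about 2 to 6 months were mated with wild-type males and killed at 3.5 or 0.5 days post coitum (D3.5, D0.5). LE is luminal epithelium scraped from dispase-treated horns, DU a piece of the dispase-digested uterus and U an undigested piece. There were 7 KO and 9 control LE libraries at D0.5 and 6 KO and 4 control ones at D3.5. For DU there were 3 KO and 3 control libraries from D3.5, 3 KO and 4 control libraries from D0.5. For U there were 5 KO and 5 control libraries from D3.5, 4 KO and 6 control libraries from D0.5. Libraries are named by mouse number, and the 13 mice with DU also gave LE and U.

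Total estimated counts lay between 11305113 and 108002365 per library. Esr1 stood at 47.3 ± 12.5 CPM in LE of KO mice and 192 ± 57.6 CPM in LE of control mice at D0.5 (SD, n = 7 and 9), and no library overlapped. The U library of KO mouse 33 held 212 CPM of Esr1, above the highest U control of that day at 195 CPM. The sum of 6 stromal markers, which are high in whole uterus, was 300 to 3308 CPM in LE and 6509 to 12615 CPM in DU and U, and no LE library lacked them. In LE at D3.5, KO mice 35, 36 and 37 stood apart from KO mice 31, 32 and 34, as shown with Ccl28 further on, and results that rest on them are given with and without them. In bulk tissue, fewer cells of a type and less RNA per cell cannot be told apart.

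**Figure D1:**
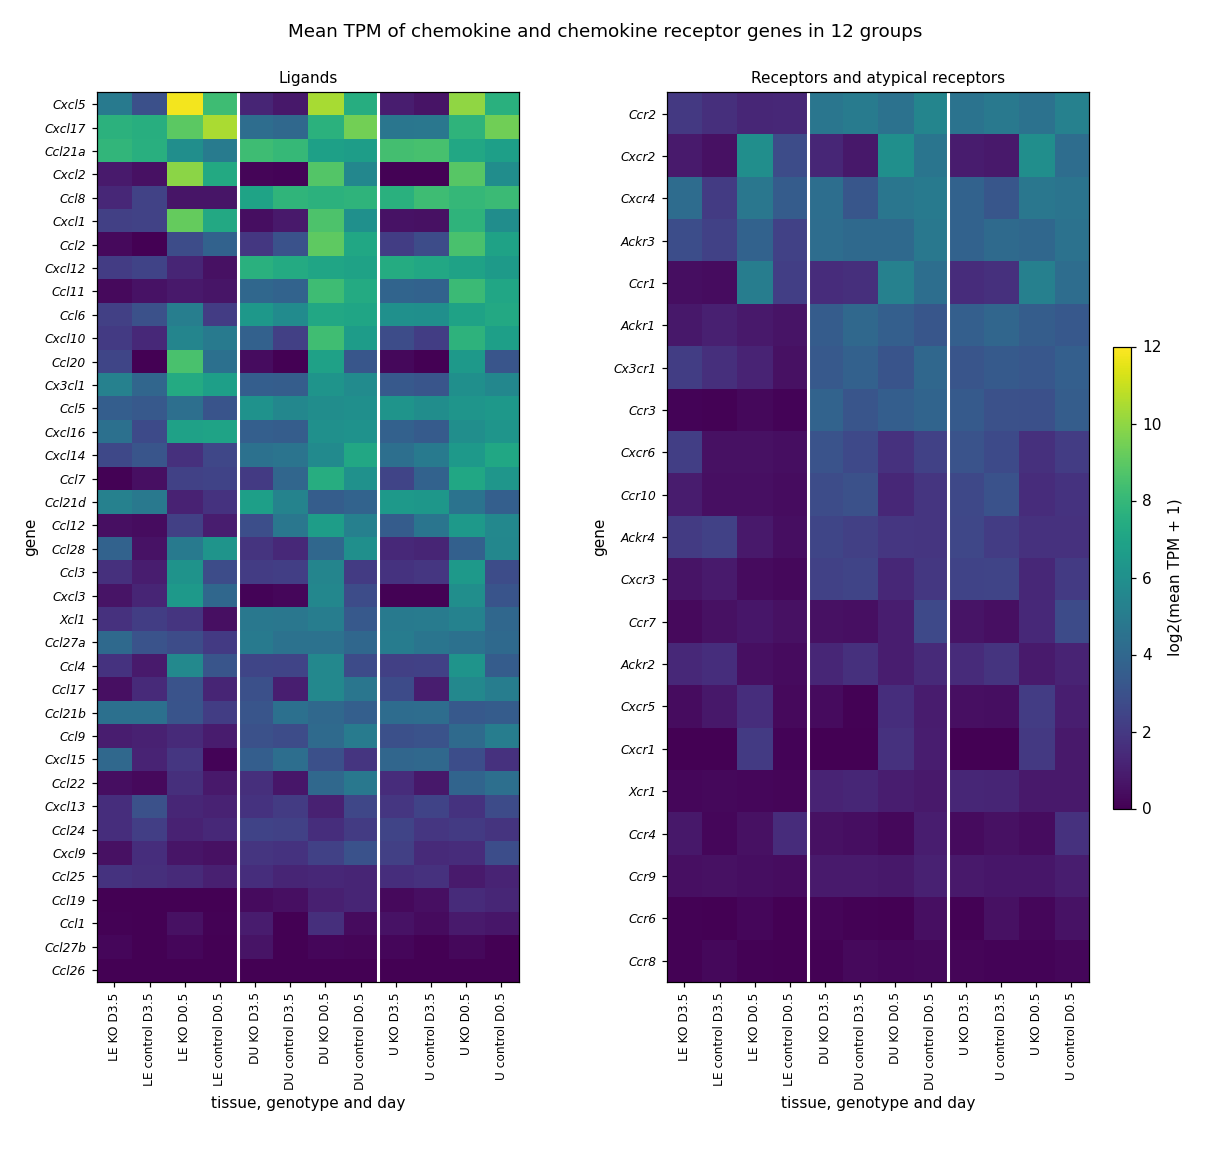
Mean TPM of the 38 ligand genes (left) and 21 receptor genes (right) in the 12 groups of tissue, genotype and day, as log2(mean TPM + 1) by colour, genes ordered by their mean over the groups. The Cxcr2 ligands Cxcl5, Cxcl2 and Cxcl1 are bright in the KO D0.5 columns and dark in the D3.5 columns of DU and U.

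By TPM, which corrects for transcript length and so allows levels of different genes to be compared, ligands were far more abundant than receptors. Averaged over the 12 group means, Cxcl5, an epithelial Cxcr2 ligand, led at 553 TPM, before the mucosal chemokine Cxcl17 at 350.2 TPM and the lymph vessel chemokine Ccl21a at 188 TPM. Cxcl2 followed at 177 TPM, the monocyte chemokine Ccl8 at 153 TPM and Cxcl1 at 124 TPM. The receptors highest by the same measure were the monocyte receptor Ccr2 at 19.9 TPM, Cxcr2 at 19.6 TPM, the Cxcl12 receptor Cxcr4 at 17.6 TPM and the atypical Cxcl12 receptor Ackr3 at 14.3 TPM. Differences between neighbours in this order were not tested. A mean of at least 1 TPM in some group was reached by 56 members.

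The leading ligand changed with day and genotype. Cxcl5 had the highest mean TPM of all ligands in each of the 3 KO groups at D0.5, with 3488 ± 1079 TPM in LE (SD, n = 7). Cxcl17 led in each of the 3 control groups at D0.5, with 1416 ± 390 TPM in LE (SD, n = 9). Ccl21a led in all 6 groups at D3.5, with 239 ± 287 TPM in KO LE and 190 ± 192 TPM in control LE (SD, n = 6 and 4). In LE this rested on a few mice: Ccl21a had 557 and 656 TPM in KO mice 31 and 32 and 22.1 to 78.8 TPM in the other KO mice, and 467 TPM in control mouse 11 and 23.4 to 140 TPM in the other controls. Cxcl17 had 209 ± 45.9 TPM in KO LE and 183 ± 63.2 TPM in control LE on that day, and exceeded Ccl21a in 4 of 6 KO libraries and 3 of 4 control libraries. The value of Ccl21a alone is uncertain, since 80.6% of its 31-base words also occur in another gene. Together the 60 members took 0.401% to 1.05% of the counts of an LE library in KO mice at D0.5, against 0.148% to 0.269% in control mice. At D3.5 the share in LE was 0.0333% to 0.0824% in KO mice and 0.028% to 0.0638% in control mice.

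Knockout was first compared with control in LE at D0.5, the day after mating. Tested with edgeR's quasi-likelihood test and Benjamini-Hochberg adjustment over all 15601 genes, 23 of 54 tested members passed an adjusted p of 0.05, 21 higher and 2 lower in KO, while 23.5% of all genes tested passed, 10.9% of them higher. The median log2 fold change was 0.86 over the members and −0.01 over all genes tested. The higher ones were 13 of 34 ligands and 8 of 20 receptors. They included the 4 ligands of the neutrophil receptor Cxcr2, Ccl20, the myeloid cell ligands Ccl3, Ccl4 and Ccl6, and the neutrophil receptors themselves. The lower ones were the ligands Cxcl17 and Cxcl14, the second of which was not called without control mouse 1, 5 or 9 or KO mouse 22, 23, 24, 26 or 27.

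Cxcl5 stood at 2160.2 CPM in the lowest, 4850.4 in the median and 6366 in the highest KO library, against 94.6, 350.5 and 791 CPM in control (log2 fold change 3.45 ± 0.91 SE, adjusted p = 0.00601 by edgeR). Every KO library lay above every control library. Cxcl2 ranged over 226, 609 and 1776 CPM in KO LE and 9.35, 123 and 243 CPM in control LE (2.59 ± 0.63, adjusted p = 0.00318). Here KO mouse 23, the lowest KO library, fell below control mice 4 and 8.

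Cxcl1, the third of these neutrophil attractants, had 66.9, 412 and 1040 CPM as lowest, median and highest in KO LE and 12.1, 74.4 and 205 CPM in control LE. KO mice 21, 23 and 24 lay within the control range and the other 4 above it. Its log2 fold change of 1.91 ± 0.66 passed narrowly (adjusted p = 0.0341 by edgeR), and it was no longer called when control mouse 2, 5, 6, 7 or 9 or KO mouse 26 or 27 was left out. Cxcl3 ranged over 11.7, 54.7 and 163 CPM in KO LE and 0.364, 8.31 and 25.9 CPM in control LE (2.50 ± 0.60, adjusted p = 0.00309), with KO mouse 23 alone inside the control range.

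Ccl20, an attractant of Ccr6-bearing dendritic cells and lymphocytes, reached 24.1, 263 and 500.1 CPM in KO LE and 1.17, 7.88 and 26.1 CPM in control LE (4.17 ± 0.89, adjusted p = 0.0012 by edgeR). All KO libraries but that of mouse 21 exceeded every control. Its receptor Ccr6 was at the limit of detection: 6 counts over 7 KO libraries, all in mouse 22 at 0.311 CPM, and 2 counts over 9 control libraries, so it was not tested. In the LE libraries of D0.5, 3 counts corresponded to 0.0475 to 0.209 CPM, the limit that a count of 0 allows for counting error.

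**Figure D2:**
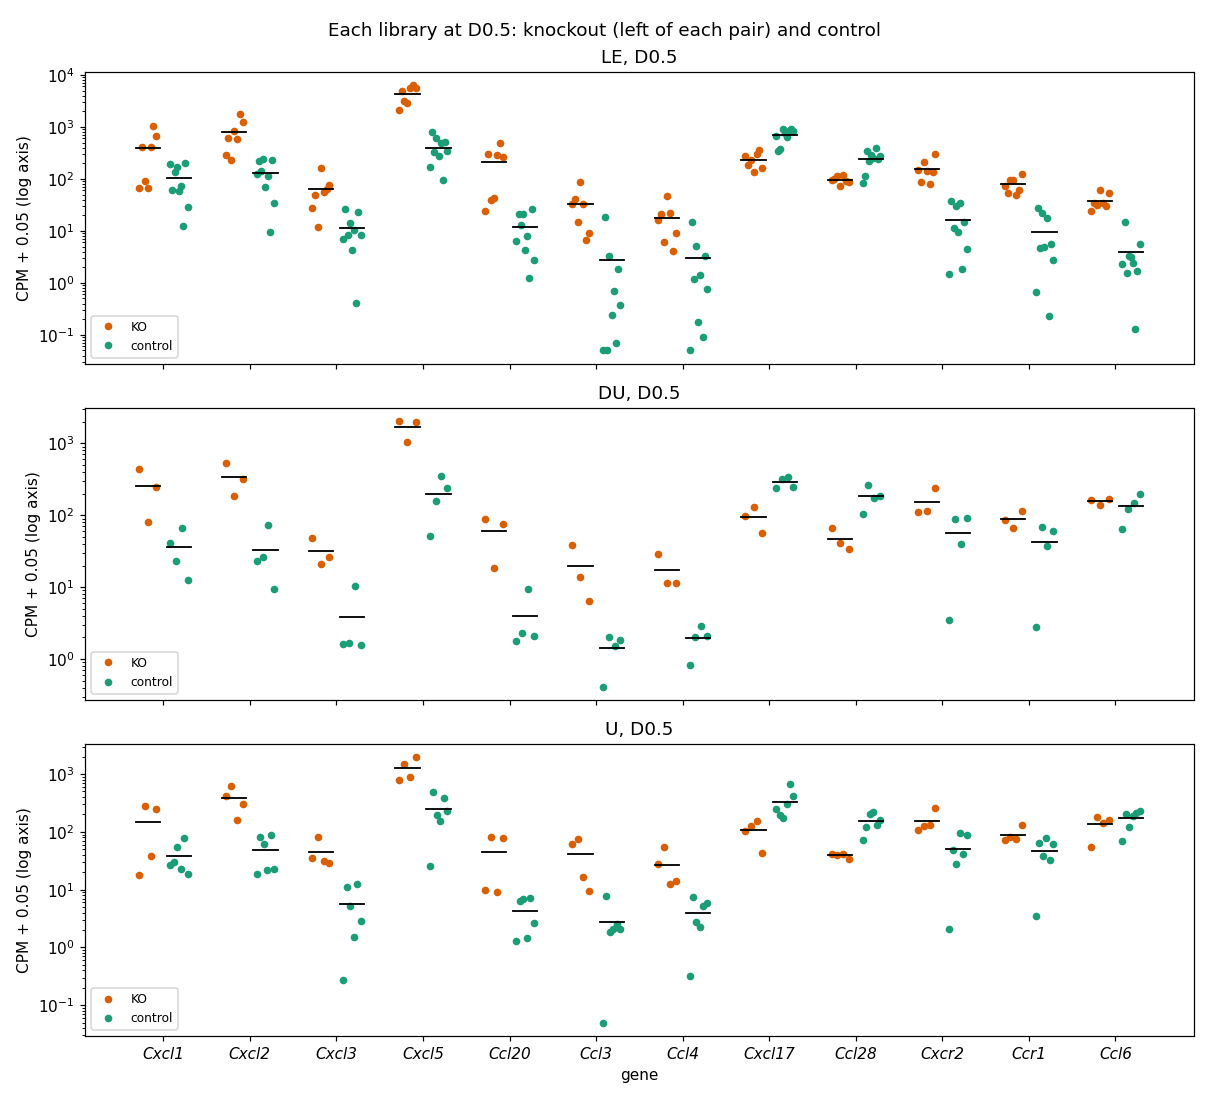
CPM of 12 members in each library at D0.5 in LE, DU and U on a log axis, 0.05 CPM added, with KO mice left and control mice right of each pair and black lines for the means. Cxcl5 is separated between genotypes in all 3 tissues, while Cxcl17 and Ccl28 have lower means in KO mice.

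The promoters of the ligands that rose together were read, since 3 of the Cxcr2 ligands lie close together on chromosome 5 of the mouse genome. Shown are the 150 bases before the annotated start of Cxcl1 (chr5:90891095-90891244), Cxcl2 (chr5:90903749-90903898), Cxcl3 (chr5:90785951-90786100) and Ccl20 (chr1:83116616-83116765), all on the plus strand, 5′ to 3′, from RefSeq on GRCm38.p6. Capitals mark bases that match the NF-kB consensus on either strand.
Cxcl1: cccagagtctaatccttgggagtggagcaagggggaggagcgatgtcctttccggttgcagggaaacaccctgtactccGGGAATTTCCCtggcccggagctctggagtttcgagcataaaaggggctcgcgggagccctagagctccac
Cxcl2: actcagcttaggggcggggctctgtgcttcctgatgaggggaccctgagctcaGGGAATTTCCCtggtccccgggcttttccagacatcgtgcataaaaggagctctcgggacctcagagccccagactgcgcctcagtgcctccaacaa
Cxcl3: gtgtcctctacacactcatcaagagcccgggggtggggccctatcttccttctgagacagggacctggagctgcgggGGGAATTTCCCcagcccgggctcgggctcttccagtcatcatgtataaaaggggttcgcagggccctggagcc
Ccl20: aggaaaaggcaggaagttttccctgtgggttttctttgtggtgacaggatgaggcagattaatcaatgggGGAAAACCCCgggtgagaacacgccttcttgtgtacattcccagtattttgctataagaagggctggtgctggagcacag
The 2 overlapping matches of Cxcl1 lie 66 and 65 bases before the start, those of Cxcl2 at 92 and 91 and those of Cxcl3 at 68 and 67, one on each strand and sharing the same run of bases, and Ccl20 has its match at 75. Over the 250 bases before the start, searched on both strands, 9 of 53 promoters of the 46 members found in the RefSeq table held such a match (17.0%), against 3.899% of all 32851 promoters of that length. The others were Cxcl10, Ccl9, Ackr2, Ccr3 and Ccr6, none of which was called higher in KO LE at D0.5. Ccl3, Ccl6, Cxcl15, Xcl1, Cxcl12, Ccl17 and Ccl27a were called higher there and held no match. The promoters printed are thus only those of called ligands with a match. The consensus oestrogen response element was found in none of the 53, against 0.064% of all promoters, and the AP-1 motif TGANTCA in 6, or 11.3%, against 6.749%. A match of letters is a description of the sequence and not a bound site. Cxcl5, Cxcl17, Ccl4, Ccl2, Cxcl16, Ccl11, Ccl24, Ccl26, Ccl5, Ccl7, Ccr10, Ccr7 and Cxcr5 had no entry.

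Among the CC ligands of myeloid cells, Ccl3, which binds Ccr1, had 6.53, 33.2 and 88.4 CPM as lowest, median and highest in KO LE and 0, 0.317 and 18.1 CPM in control LE (3.58 ± 0.97, adjusted p = 0.00791 by edgeR). Control mouse 2 alone reached into the KO range. Ccl4, a macrophage inflammatory protein, had 4.00, 16.4 and 45.8 CPM in KO LE and 0, 1.15 and 14.7 CPM in control LE (2.59 ± 0.85, adjusted p = 0.0262, and 0.0823 without KO mouse 24). Ccl6, a Ccr1 ligand of rodents, separated the genotypes fully, at 24.3, 33.7 and 59.9 CPM in KO LE and 0.081, 2.37 and 14.5 CPM in control LE (3.33 ± 0.55, adjusted p = 6.79e-05). The rodent ligand Cxcl15, known as lungkine, was low but also separate, with 0.628, 3.53 and 12.5 CPM in KO LE and 0, 0.165 and 0.258 CPM in control LE (4.97 ± 0.55, adjusted p = 3.13e-07).

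Cxcl17 went the other way. It had 133, 226 and 356 CPM in KO LE and 350.5, 769 and 907 CPM in control LE (−1.57 ± 0.23, adjusted p = 1.43e-05 by edgeR), with KO mouse 26 alone inside the control range. Ccl28, a mucosal ligand of Ccr10, had 73.7, 94.7 and 119 CPM in KO LE and 83.2, 250.1 and 393 CPM in control LE, a difference that missed the threshold (−1.35 ± 0.54, adjusted p = 0.0718). The lowest control libraries, of mice 1 and 2, overlapped with KO. The membrane-bound ligands Cxcl16 and Cx3cl1 were abundant in both genotypes, at medians of 282 CPM in KO and 282 CPM in control for Cxcl16 and 384 CPM in KO and 283 CPM in control for Cx3cl1, and neither was called.

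Receptors rose beside the ligands in LE at D0.5. Cxcr2 had 80.7, 140 and 295 CPM in KO LE and 1.45, 11.5 and 38.1 CPM in control LE (3.28 ± 0.59, adjusted p = 0.000152 by edgeR). Ccr1, the receptor of Ccl3 and Ccl6 on neutrophils and monocytes, had 49.7, 73.6 and 124 CPM in KO LE and 0.182, 4.76 and 27.9 CPM in control LE (3.05 ± 0.70, adjusted p = 0.00201). For both receptors all KO libraries lay above all control libraries, and so did Cxcr1, the other CXC receptor of neutrophils, at means of 2.63 CPM in KO LE and 0.0824 CPM in control LE (4.78 ± 0.78, adjusted p = 0.000168).

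The Cxcl12 receptors were called with smaller changes. Ackr3 had 14.2, 25.1 and 55.6 CPM in KO LE and 4.00, 8.39 and 20.03 CPM in control LE (1.65 ± 0.32, adjusted p = 0.000367 by edgeR). Cxcr4 had 21.2, 29.9 and 61.3 CPM in KO LE and 2.77, 10.3 and 37.7 CPM in control LE (1.199 ± 0.41, adjusted p = 0.034). The genotypes overlapped for both, and the Cxcr4 call was lost when control mouse 1, 3, 5, 8 or 9 or KO mouse 21, 24 or 27 was left out, with adjusted p up to 0.0956. Their ligand Cxcl12 was also called higher, but at 2.26 CPM in KO LE and 0.858 CPM in control LE it was scarce there. The remaining members called higher stayed below 5 CPM: the receptors Cxcr5, Cx3cr1 and Ackr4 and the ligands Xcl1, Ccl27a and Ccl17. Of these, Ccl17 was lost without any 1 of 10 libraries and Ccl27a without any 1 of 10, and Cxcl12 without KO mouse 25.

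Genes that work with these receptors were counted from lists chosen with earlier results of these data known. Of 20 genes of chemokine receptor signalling, 19 were tested in LE at D0.5, 10 were higher and 1 lower in KO. Rac2, the leukocyte Rac GTPase needed for neutrophil movement, averaged 54.7 CPM in KO LE and 7.26 CPM in control LE (log2 fold change 2.91 ± 0.44). The myeloid Src kinase Fgr (3.15 ± 0.57) was also higher, and Pik3cg, a leukocyte PI3 kinase, was lower at 8.98 CPM in KO LE and 32.9 CPM in control LE (−1.87 ± 0.29). Of 10 chemokine-related genes 2 were higher and 1 lower. Ccrl2, a chemokine receptor-like protein that presents chemerin, averaged 137 CPM in KO LE and 25.5 CPM in control LE, and Cmklr1, the chemerin receptor, 2.41 CPM in KO LE and 7.72 CPM in control LE. Among 9 inflammatory cytokines Il1b was higher, Il1a lower and the neutrophil growth factor Csf3 not called at 822 CPM in KO LE and 402 CPM in control LE (adjusted p = 0.109 by edgeR). Of 9 NF-kB pathway genes Nfkb1 and Rel were higher. Of all genes tested in LE at D0.5, 23.5% were called, 10.9% higher and 12.6% lower. The called parts of the chemokine-related, cytokine and NF-kB lists were near that share.

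Markers of neutrophils moved with these members. Their sum over 10 genes was 855 to 3184 CPM in KO LE and 17.1 to 367 CPM in control LE at D0.5, with 6 of 7 tested markers higher and Ly6g lower, and with Elane at 0 in every control library. The 2 control libraries with the lowest sums, of mice 7 and 1, also had the lowest Cxcr2, at 1.76 and 1.45 CPM. The sum of 10 macrophage and monocyte markers was 1312 to 2651 CPM in KO LE and 604 to 1360 CPM in control LE, with 6 markers higher and 1 lower. The sum of 6 epithelial markers was 3253 to 5973 CPM in KO LE and 6370 to 12089 CPM in control LE, with 3 lower, beside the lower Cxcl17 and Cxcl14. The part of these cell types in the results was not tested.

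The same comparison was made in DU and U, which hold all layers of the uterus. In DU at D0.5, 11 of 54 tested members were called, 8 higher and 3 lower in KO, against 8.1% of all genes tested (3.88% higher and 4.21% lower). In U at D0.5, 8 of 55 were called, 6 higher and 2 lower, against 4.86% of all genes (1.95% higher and 2.91% lower). Cxcl2, Cxcl3, Cxcl5, Ccl20, Ccl3 and Ccl4 were called higher in all 3 tissues, which come in part from the same mice. In fits of the compared groups alone, Cxcl5 in U (adjusted p = 0.0566 by edgeR) and Cxcl3 in U (0.0559) and DU (0.0637) were not called. Ccl28 and the lymphocyte receptor Ccr4 were called lower in both DU and U, and Cxcl17 in LE and DU.

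In DU, Cxcl5 had 2031, 1053 and 1957 CPM in KO mice 25, 26 and 27 and 51.5, 159, 351 and 236 CPM in control mice 1, 5, 8 and 9 (3.08 ± 0.52, adjusted p = 0.00449 by edgeR). Cxcl2 had 525, 188 and 319.8 CPM in KO DU and 23.2, 26.1, 73.0 and 9.31 CPM in control DU (3.39 ± 0.55, adjusted p = 0.00376). Cxcl1 had 440.2, 80.2 and 249.8 CPM in KO DU and 41.3, 23.4, 66.9 and 12.6 CPM in control DU (2.83 ± 0.57, adjusted p = 0.0119, and 0.0515 without KO mouse 25). No library overlapped for any of these 3 ligands. In the undigested uterus, Cxcl5 had 799, 1493, 896 and 1952 CPM in KO mice 21, 25, 26 and 27, and 26.0, 213 and 498 CPM as lowest, median and highest in control (2.38 ± 0.54, adjusted p = 0.0117). Cxcl2 there had 425, 618, 162 and 307 CPM in KO and 18.6, 41.7 and 86.6 CPM in control (2.97 ± 0.47, adjusted p = 0.000704). Both ligands separated the genotypes in U as well, whereas Cxcl1 did not, since KO mouse 21 at 17.8 CPM lay below all controls (1.93 ± 0.57, adjusted p = 0.0529).

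Ccl3 had 38.5, 13.8 and 6.46 CPM in KO DU and 0.366, 1.96, 1.48 and 1.78 CPM in control DU (3.86 ± 0.62, adjusted p = 0.0028 by edgeR). Ccl4 had 29.2, 11.2 and 11.5 CPM in KO DU and 0.775, 1.96, 2.81 and 2.02 CPM in control DU (3.22 ± 0.43, adjusted p = 0.000839). Ccl20 had 88.9, 18.3 and 75.0 CPM in KO DU and 1.74, 2.29, 9.50 and 2.02 CPM in control DU (3.97 ± 0.71, adjusted p = 0.00934). KO mice were above control mice throughout for these 3 genes, with KO mouse 26 the lowest KO library for Ccl20 and mouse 27 for Ccl3. In U the 3 genes were higher by 3.95 ± 0.68, 2.80 ± 0.56 and 3.41 ± 0.70 on the log2 scale, with adjusted p of 0.00141, 0.0047 and 0.00933, again with no overlap. Cxcl3 was called in DU (3.10 ± 0.66, adjusted p = 0.0142, and 0.0633 without KO mouse 25) and in U (3.03 ± 0.65, adjusted p = 0.00864, and 0.0581 without KO mouse 25). Xcl1, a lymphocyte-derived ligand of Xcr1, was called in DU at 11.3, 5.12 and 7.28 CPM in KO and 0.732, 2.94, 1.74 and 2.61 CPM in control (2.01 ± 0.41, adjusted p = 0.0106, and 0.0531 without KO mouse 25).

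Cxcl17 had 97.7, 129 and 56.5 CPM in KO DU and 238, 321, 341 and 250.5 CPM in control DU (−1.61 ± 0.26, adjusted p = 0.00324 by edgeR). Ccl28 had 41.4, 39.9, 40.6 and 34.0 CPM in KO U and 71.9, 148 and 223 CPM as lowest, median and highest in control U (−1.97 ± 0.39, adjusted p = 0.00408). Ccl28 had 66.1, 41.0 and 34.4 CPM in KO DU and 106, 261, 177 and 188 CPM in control DU (−1.95 ± 0.50, adjusted p = 0.0357). All KO libraries lay below all control libraries for these genes, but Ccl28 lost its DU call, with adjusted p of 0.0518 to 0.116, when any 1 of KO mice 25, 26 and 27 or control mice 5, 8 and 9 was left out. Ccr4, a receptor of T helper and regulatory cells, averaged 0.347 CPM in KO DU and 1.98 CPM in control DU (−2.48 ± 0.58) and 0.798 CPM in KO U and 2.49 CPM in control U (−1.63 ± 0.40). Its call was lost in DU without KO mouse 25 or 26 or control mouse 5 and in U without KO mouse 26 or 27.

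The neutrophil receptors were not called in whole uterus. Cxcr2 had 112, 114 and 237 CPM in KO DU and 3.46, 88.6, 40.4 and 92.3 CPM in control DU (1.47 ± 0.76, adjusted p = 0.259 by edgeR). Cxcr2 had 108, 127, 129.5 and 261 CPM in KO U and 2.03, 45.1 and 94.3 CPM as lowest, median and highest in control U (1.64 ± 0.55, adjusted p = 0.0981). In both tissues every KO library still exceeded every control library, and control mouse 1 was far below the other controls. Ccr1 overlapped, at means of 89.6 CPM in KO DU and 42.4 CPM in control DU. Without control mouse 1, 17 members were called in DU and 14 in U, and without KO mouse 25 the count in DU was 6. The neutrophil marker sum was 1119 to 2793 CPM in KO DU and 80.3 to 547 CPM in control DU, and 1449 to 2780 CPM in KO U and 76.9 to 874 CPM in control U, with control mouse 1 lowest in both; its part in the result was not tested. Epithelial marker sums were 1631 to 1881 CPM in KO DU and 1990 to 4402 CPM in control DU, beside the lower Cxcl17 and Ccl28, and their part was not tested either. In KO DU, 3 of 6 stromal and 3 of 5 muscle markers were called higher, and in KO U 1 and 0. Of 10 macrophage and monocyte markers, 1 was higher and 2 lower in KO DU, and 1 higher and 3 lower in KO U. The part of these was not tested.

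Several stromal and monocyte chemokines varied as much within a genotype as between genotypes. Ccl2, the main ligand of Ccr2, had 453, 14.6 and 314 CPM in DU of KO mice 25, 26 and 27 and 4.50, 60.4, 131 and 62.7 CPM in control DU (2.01 ± 0.95, adjusted p = 0.218 by edgeR). The interferon-inducible Cxcr3 ligand Cxcl10 had 378, 9.62 and 353 CPM in the same KO mice and 14.3, 89.4, 97.6 and 72.3 CPM in control DU (1.86 ± 0.91, adjusted p = 0.237). For both genes KO mice 25 and 27 were high and KO mouse 26 was low. The summed NF-kB pathway genes, of which 4 of 9 were called higher in KO DU, split the same mice, at 3006, 1378 and 2653 CPM in KO DU and 1147 to 1795 CPM in control DU. So did 11 immediate early genes, at 2954, 1491 and 2719 CPM in KO DU and 976 to 1948 CPM in control DU, and 9 inflammatory cytokine genes, at 1351, 485 and 1017 CPM in KO DU and 285 to 620.2 CPM in control DU, with 1 of each list called higher. In LE of KO mice 25, 26 and 27 these lists did not show mouse 26 as low. There the NF-kB sum was 2706, 4373 and 3759 CPM. The immediate early sum was 2068, 3492 and 3506 CPM and the cytokine sum 1153.5, 2942 and 2699 CPM. Their part in the result was not tested. The undigested pieces of the same mice showed the split of Ccl2 too, with 470.4, 24.2 and 284 CPM of Ccl2 in U of KO mice 25, 26 and 27. Ccr2 itself had 64.2, 74.5 and 59.6 CPM in KO DU and 57.7, 166, 84.4 and 149.8 CPM in control DU, and was not called (adjusted p = 0.112). Ccl8 was not called, at means of 47.9 CPM in KO DU and 46.0 CPM in control DU (0.06 ± 0.30, adjusted p = 0.928).

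**Figure D3:**
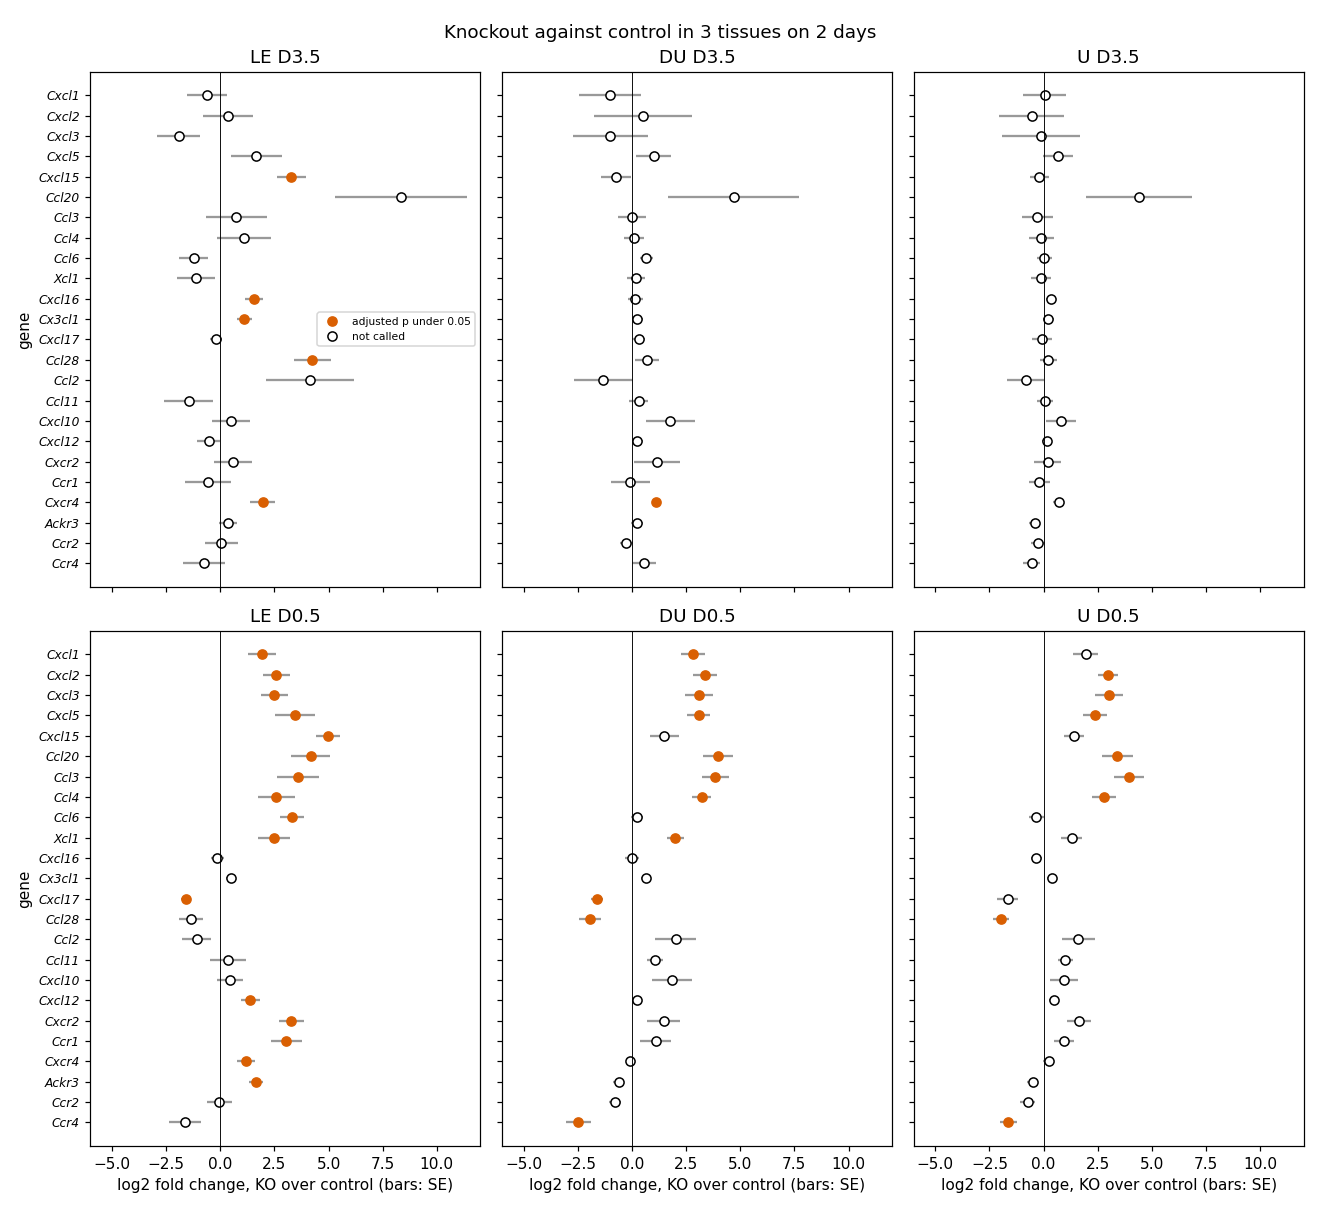
Log2 fold changes of KO over control for 24 members in LE, DU and U at D3.5 (top) and D0.5 (bottom), with bars for the SE and filled points where the adjusted p was under 0.05. Cxcl2, Cxcl3, Cxcl5, Ccl20, Ccl3 and Ccl4 are filled to the right of 0 in all 3 tissues at D0.5, and open at D3.5.

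The effect of the knockout was then compared between LE and DU with an interaction term, which asks whether a change in scraped epithelium differs from that in the digested uterus. At D0.5, 1 of 54 members passed, against 0.721% of all genes. Ackr3 changed more in LE, by 2.29 ± 0.55 on the log2 scale (adjusted p = 0.033 by edgeR): it had 25.2, 26.1 and 50.7 CPM in KO DU and 66.6, 39.4, 50.6 and 52.1 CPM in control DU, where it was not called, and was higher in KO LE. This call was lost without mouse 1, 5, 6, 8, 9, 21, 22, 25, 26 or 27. When each of 13 mice entered as its own block, Ackr3 (2.20), Cx3cr1 (2.40), Ccl6 (3.37) and Cxcl15 (4.13) passed, against 1.43% of all genes. Ccl6 had 165, 139 and 168 CPM in KO DU and 63.5, 123, 148.6 and 200.5 CPM in control DU, so its difference between genotypes was seen in LE and not called in DU. The differences of Cxcr2 and of the Cxcr2 ligands between LE and DU were not called, which does not show that they were equal.

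At D3.5 fewer members differed between the genotypes. In LE 7 of 54 were called, 6 higher and 1 lower in KO, against 13.4% of all genes tested (7.72% higher and 5.7% lower). In DU 1 was called, against 0.55%, and in U none of 55, against 0.00616%. In U, 5 members had an unadjusted p under 0.05 by edgeR, and DESeq2 and limma called 0 as well. With all libraries, the Cxcr2 ligands and Cxcr2 were not called in any tissue at D3.5, with a highest mean of 25.9 CPM for Cxcl5 in KO LE. Without KO mice 35 to 37 that mean was 0.1555 CPM. Cxcl5 (−5.59 ± 0.88, adjusted p = 0.00025 by edgeR) and Cxcl3 (−5.60 ± 1.71, adjusted p = 0.0474) were then called lower in KO LE. With all libraries neither was called. The mice left out were set apart by values of these data and held most of the Cxcl5 of KO LE. Both lower calls thus depend on that choice, are no separate test and do not show lower levels in KO mice.

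Cxcl15 had 13.2, 20.7 and 26.4 CPM as lowest, median and highest in KO LE at D3.5 and 0.828, 1.93, 2.67 and 2.58 CPM in control mice 11, 14, 15 and 16 (3.28 ± 0.67, adjusted p = 0.00145 by edgeR). It thus separated the genotypes in LE on both days. Cxcl15 was not called in DU at D3.5, at 18.1, 12.5 and 17.3 CPM in KO mice 32, 34 and 35 and 21.2, 38.8 and 19.7 CPM in control mice 11, 14 and 16, and the difference between LE and DU was called (4.05 ± 1.00, adjusted p = 0.0224, against 2.38% of all genes, 1.67% upward, and 4.41 with the mouse as a block, where 3.04% of all genes were called). This call was lost without mouse 11, 14, 32, 34 or 35, and without KO mice 35 to 37.

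Cxcr4, the Cxcl12 receptor, was called higher in KO mice in LE and DU at D3.5, and not in U. It had 9.23, 17.6 and 24.5 CPM in KO LE and 5.01, 2.20, 3.18 and 7.59 CPM in control LE (1.96 ± 0.58, adjusted p = 0.0225 by edgeR). Cxcr4 had 17.5, 20.4 and 19.7 CPM in KO DU and 9.13, 10.1 and 7.16 CPM in control DU (1.13 ± 0.21, adjusted p = 0.0235). The genotypes did not overlap in either tissue, whereas in U they did, at 16.9, 11.5, 19.5, 17.8 and 13.0 CPM in KO and 8.68, 9.67, 13.1, 10.2 and 7.13 CPM in control (0.69 ± 0.26, adjusted p = 0.832). The LE call was lost without control mouse 11, 14 or 15 (adjusted p of 0.0509, 0.0752 and 0.0712), and the DU call whichever of its 6 libraries was left out (0.0615 to 0.174).

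**Figure D4:**
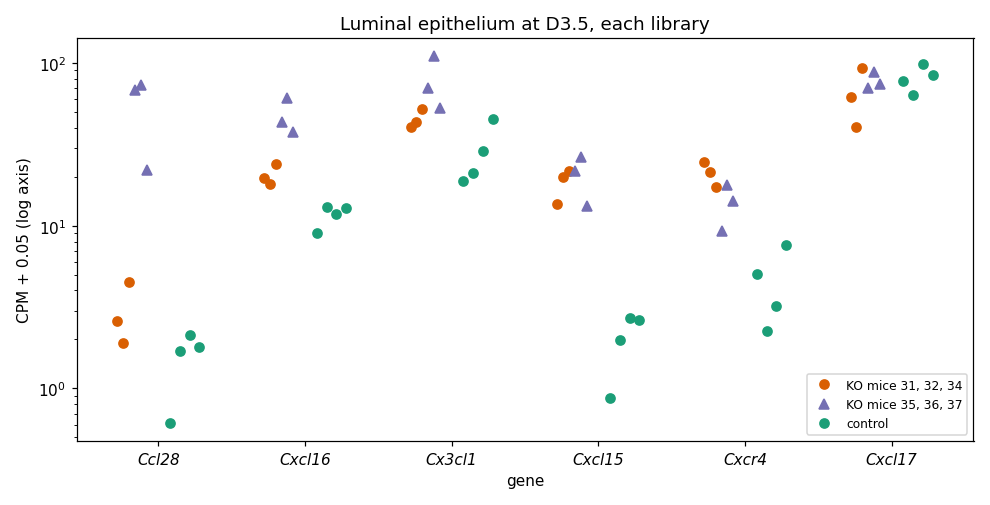
CPM of 6 members in each LE library at D3.5 on a log axis, 0.05 CPM added, with KO mice left (triangles: mice 35, 36 and 37) and control mice right. The triangles of Ccl28 lie at 22.0 to 73.2 CPM and the KO circles at 1.85 to 4.43 CPM, beside controls at 0.567 to 2.07 CPM.

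The calls of 3 epithelial ligands were lost without KO mice 35, 36 and 37. Ccl28 is the gene that shows these mice apart, so leaving them out is no separate test of it. The fit without them holds only 3 KO libraries of that day. Ccl28 had 67.9, 73.2 and 22.0 CPM in these mice, 2.54, 1.85 and 4.43 CPM in KO mice 31, 32 and 34 and 0.567, 1.65, 2.07 and 1.75 CPM in control (4.25 ± 0.85, adjusted p = 0.00108 by edgeR, and 0.99 with adjusted p = 0.201 without mice 35 to 37). Cxcl16, a Cxcr6 ligand, had 43.6, 60.9 and 37.5 CPM in mice 35, 36 and 37, 19.7, 18.03 and 24.1 CPM in KO mice 31, 32 and 34 and 9.02, 13.1, 11.8 and 12.8 CPM in control (1.54 ± 0.41, adjusted p = 0.0122, and 0.85 with 0.27 without them). Cx3cl1 had 40.5, 52.5 and 110 CPM as lowest, median and highest in KO LE and 18.8, 21.1, 28.6 and 45.3 CPM in control (1.11 ± 0.33, adjusted p = 0.025). Cxcl16 was higher in every KO library than in every control, also in KO mice 31, 32 and 34, while Ccl28 of KO mouse 32 and Cx3cl1 of KO mice 31 and 32 lay within the control range. The Cx3cl1 call was lost without mice 35 to 37 (0.70, adjusted p = 0.281) and without control mouse 11, 14 or 15 or KO mouse 36.

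The receptor Cxcr6 averaged 4.02 CPM in KO LE and 0.689 CPM in control LE (2.52 ± 0.80, adjusted p = 0.0361 by edgeR), with 4.44, 10.8 and 4.78 CPM in mice 35, 36 and 37 and 0.721, 1.58 and 1.78 CPM in KO mice 31, 32 and 34. The interferon-inducible Cxcl9 was the lower one, and rested on control mouse 14 at 14.3 CPM, the other controls being at 0.759 to 1.00 CPM. Neither Cxcl9 nor Cxcr6 was called without KO mouse 35, 36 or 37, nor Cxcr6 without control mouse 15 or 16. Without control mouse 14 neither was called and the count in LE fell to 3; it was 4 without control mouse 15 or KO mouse 36. Without KO mice 35 to 37, 4 members were called, of which Cxcl15 and Cxcr4 were shared with the full set. Cxcl3 and Cxcl5 were added as lower in KO, which depends on leaving out these mice and is no separate test. Ccl20 had no count in the 4 control libraries and 198 counts over the 6 KO libraries, with 9.07 CPM in KO mouse 36 and at most 1.19 CPM in the others, and it was not called (adjusted p = 0.0742). Neutrophil marker sums at D3.5 were 2.60 to 15.0 CPM in KO LE and 6.49 to 14.7 CPM in control LE. The erythroid sum was 22.8 to 340 CPM in KO LE and 367 to 1911 CPM in control LE, with none of 4 genes called. The sum of 9 NF-kB pathway genes was 405 to 555 CPM in KO LE and 617 to 1130 CPM in control LE, with 3 called lower. The macrophage and monocyte sum was 352, 495 and 317 CPM in KO mice 35, 36 and 37, 245, 234 and 267 CPM in KO mice 31, 32 and 34, and 218 to 407 CPM in control LE. The part of these in the result was not tested.

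Differences between the days were tested within each genotype. In LE, 29 of 54 members were called in KO mice, 6 higher and 23 lower at D3.5, against 41.6% of all genes (21.4% higher and 20.2% lower). In control mice 31 were called, 14 higher and 17 lower, against 44% of all genes (21.1% higher and 22.8% lower). The lower ones in both genotypes included Cxcl1, Cxcl2, Cxcl3, Cxcl5, Ccl20, Cxcl16, Cx3cl1, Cxcl17 and Ccl28.

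Cxcl2 averaged 0.55 CPM at D3.5 and 791 CPM at D0.5 in KO LE (−10.55 ± 1.08, adjusted p = 1.77e-08 by edgeR), and Cxcl5 25.9 CPM at D3.5 and 4372 CPM at D0.5 (−7.40 ± 1.29, adjusted p = 4.59e-05). In the same mice Cxcl3 (−7.96 ± 0.97) and Cxcl1 (−7.84 ± 1.02) were lower, and Cxcr2 averaged 1.57 CPM at D3.5 and 158 CPM at D0.5 (−6.66 ± 0.83, adjusted p = 3.56e-07). No library of the one day overlapped with the other for these 5 genes. In control LE, Cxcl2 averaged 0.381 CPM at D3.5 and 132 CPM at D0.5 (−8.31 ± 1.22, adjusted p = 3.6e-06). Ccl20 and Ccl2 had no count in control LE at D3.5, against means of 11.6 CPM and 6.59 CPM at D0.5. Ccl28 averaged 1.51 CPM at D3.5 and 246 CPM at D0.5 in control LE (−7.36 ± 0.96, adjusted p = 6.18e-07). In KO LE, Ccl28 averaged 28.7 CPM at D3.5 and 96.6 CPM at D0.5 (−1.75 ± 0.60, adjusted p = 0.0206), and without KO mice 35 to 37 it averaged 2.94 CPM at D3.5 (−5.08 ± 0.48, adjusted p = 2.41e-08). Leaving out these mice also made the differences of Cxcl2 (−12.56), Cxcl5 (−14.72), Cxcl3 (−11.69) and Cxcl1 (−10.35) larger.

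A smaller set was higher at D3.5 in LE. Cxcl15 averaged 19.4 CPM at D3.5 and 4.69 CPM at D0.5 in KO LE (2.04 ± 0.51), and 2.00 CPM at D3.5 and 0.129 CPM at D0.5 in control LE (3.74 ± 0.59). Ackr4, an atypical receptor that removes Ccl19, Ccl21 and Ccl25, averaged 4.23 CPM at D3.5 and 1.36 CPM at D0.5 in KO LE (1.63 ± 0.32) and 6.64 CPM at D3.5 and 0.646 CPM at D0.5 in control LE (3.33 ± 0.33). For Cxcl15 and Ackr4, all libraries of D3.5 lay above those of D0.5 in each genotype. Cxcl12, a ligand of stromal cells, was also higher in control LE, at 7.41 CPM at D3.5 and 0.858 CPM at D0.5 (3.10 ± 0.49). The Ccl21 genes, which cannot be told apart well by short reads, spread widely: Ccl21a had 333, 70.2, 56.1 and 14.4 CPM in control mice 11, 14, 15 and 16 at D3.5 and a median of 14.4 CPM at D0.5 (2.65 ± 0.78), and neither it nor Ccl21b nor Ccl21d was called without control mouse 11. Ccl21d in KO LE (4.44 ± 1.37) rested likewise on KO mouse 32. Markers of other cells moved with them: in control LE, 3 of 5 endothelial, 4 of 4 erythroid and 6 of 10 lymphocyte markers were called higher at D3.5, and in KO LE 0, 1 and 1. Also called higher in control LE were 2 of 6 stromal, 3 of 4 tested dendritic and 4 of 10 macrophage and monocyte markers, with 2 of the last lower. In KO LE these were 0, 1 and 3, with 3 of the last lower. The endothelial sum was 9.82 to 214 CPM at D3.5 and 7.44 to 63.2 CPM at D0.5 in KO LE, highest in KO mouse 32, and 31.6 to 113 CPM at D3.5 and 4.93 to 50.2 CPM at D0.5 in control LE, with 102 CPM in control mouse 11. The erythroid sum was 22.8 to 340 CPM at D3.5 and 9.44 to 162 CPM at D0.5 in KO LE, and 367 to 1911 CPM at D3.5 and 5.95 to 76.4 CPM at D0.5 in control LE, highest in control mouse 11. The lymphocyte sum was 9.33 to 15.1 CPM at D3.5 and 5.61 to 17.5 CPM at D0.5 in KO LE, and 8.66 to 34.8 CPM at D3.5 and 3.04 to 12.1 CPM at D0.5 in control LE. Their part in the result was not tested.

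In U the day difference was as wide. There 29 of 55 members were called in KO mice, 3 higher and 26 lower at D3.5, against 25.4% of all genes (10.9% higher and 14.5% lower), and 31 in control mice, 5 higher and 26 lower, against 34% of all genes (16.1% higher and 17.9% lower). Cxcl2 averaged 0.0451 CPM at D3.5 and 378 CPM at D0.5 in KO U (−13.04 ± 0.86, adjusted p = 2.66e-09 by edgeR) and 0.0524 CPM at D3.5 and 48.4 CPM at D0.5 in control U (−9.52 ± 0.78, adjusted p = 1.86e-08). Cxcl5 averaged 1.02 CPM at D3.5 and 1285 CPM at D0.5 in KO U (−10.33 ± 0.81) and 0.622 CPM at D3.5 and 248 CPM at D0.5 in control U (−8.62 ± 0.76). Ccl11, the eosinophil attractant read by Ccr3, averaged 9.59 CPM at D3.5 and 223 CPM at D0.5 in KO U (−4.54 ± 0.41) and 9.19 CPM at D3.5 and 112 CPM at D0.5 in control U (−3.61 ± 0.38). No library of D3.5 reached the D0.5 range for these 3 ligands. Ccl20 had no count in control U at D3.5, against a mean of 4.30 CPM at D0.5.

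Of the 20 receptors tested in U, 3 were higher and 5 lower at D3.5 in KO mice, and 1 was higher and 6 lower in control mice. Cxcr6, a receptor of T and NK cells, averaged 10.6 CPM at D3.5 and 3.45 CPM at D0.5 in KO U (1.61 ± 0.33, adjusted p = 0.00112 by edgeR), and Cxcr3 5.61 CPM at D3.5 and 2.13 CPM at D0.5 (1.39 ± 0.34, adjusted p = 0.00494). Neither was called in control U, where Cxcr6 averaged 7.50 CPM at D3.5 and 5.39 CPM at D0.5 (adjusted p = 0.23) and Cxcr3 5.67 CPM at D3.5 and 4.55 CPM at D0.5 (adjusted p = 0.466). Ccr10, the Ccl28 receptor, averaged 6.12 CPM at D3.5 and 2.66 CPM at D0.5 in KO U (1.198 ± 0.32) and 8.80 CPM at D3.5 and 3.31 CPM at D0.5 in control U (1.41 ± 0.29), while its ligand Ccl28 was lower at D3.5 in both genotypes, by −3.06 ± 0.40 in KO and −5.25 ± 0.42 in control. Neutrophil marker sums in U were 52.7 to 127 CPM at D3.5 and 1449 to 2780 CPM at D0.5 in KO mice, and 37.1 to 92.6 CPM at D3.5 and 76.9 to 874 CPM at D0.5 in control mice. The sum of 6 epithelial markers was 424 to 898 CPM at D3.5 and 1414 to 1991 CPM at D0.5 in KO U, with 4 of them called lower, and 449 to 870 CPM at D3.5 and 2177 to 7345 CPM at D0.5 in control U, with 6 called lower. Their part in the day differences was not tested.

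Whether the knockout effect itself differed between days was tested with an interaction. In LE, 11 of 54 members passed, 3 with a more positive effect at D3.5 and 8 with a more negative one, against 16.5% of all genes (9.5% and 6.95%). Ccl28 had the largest difference upward (5.60 ± 1.00, adjusted p = 0.000305 by edgeR), at 2.30 ± 0.51 (adjusted p = 0.0046) without KO mice 35 to 37, and Cxcl16 (1.69 ± 0.51) and Cxcl17 (1.38 ± 0.37) also passed. The downward ones were Ccl6 (−4.56 ± 0.87, adjusted p = 0.000593), Cxcl3, Ccl17, Xcl1, Cxcl9, Ccr1, Cxcr5 and Ackr4. Without KO mice 35 to 37, 6 of the 11 were no longer called: Cxcl16 (adjusted p = 0.248), Cxcl17 (0.059), Ccl17 (0.161), Xcl1 (0.123), Cxcl9 (0.207) and Ccr1 (0.0525). Single control mice weighed on 2 of them: Cxcl9 was at −2.71 in all libraries and −0.42 (adjusted p = 0.772) without control mouse 14, and Ccr1 at −3.64 in all libraries and −2.16 (adjusted p = 0.385) without control mouse 11. Ccr1 was lost with any 1 of 19 libraries left out, Cxcl9 with any 1 of 14, Ccl17 with any 1 of 5 and Xcl1 with any 1 of 3. Cxcr5 was lost without control mouse 14 (adjusted p = 0.0523 by edgeR) and Cxcl16 without control mouse 11 (0.0543). Ackr4 was lost with limma on TPM (adjusted p = 0.128). The count was 17 without control mouse 2, and 7 without control mouse 14, without KO mouse 37 or without KO mice 35 to 37. The fit without KO mice 35 to 37 added Cxcl5 (−9.07 ± 1.00, adjusted p = 3.69e-06 by edgeR) and Cxcl1 (−5.03 ± 1.32, adjusted p = 0.0143). Both had a more negative effect at D3.5. With all libraries neither was called, and the mice left out were set apart by values of these data. Both calls thus depend on that choice and are no separate test. In U only Ccl28 (2.19 ± 0.53, adjusted p = 0.0425) and Ccl3 (−4.23 ± 0.98, adjusted p = 0.0341) passed, against 1.39% of all genes, and both were lost without control mouse 3, 5, 8, 11, 14 or 16 or KO mouse 25 or 35.

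**Figure D5:**
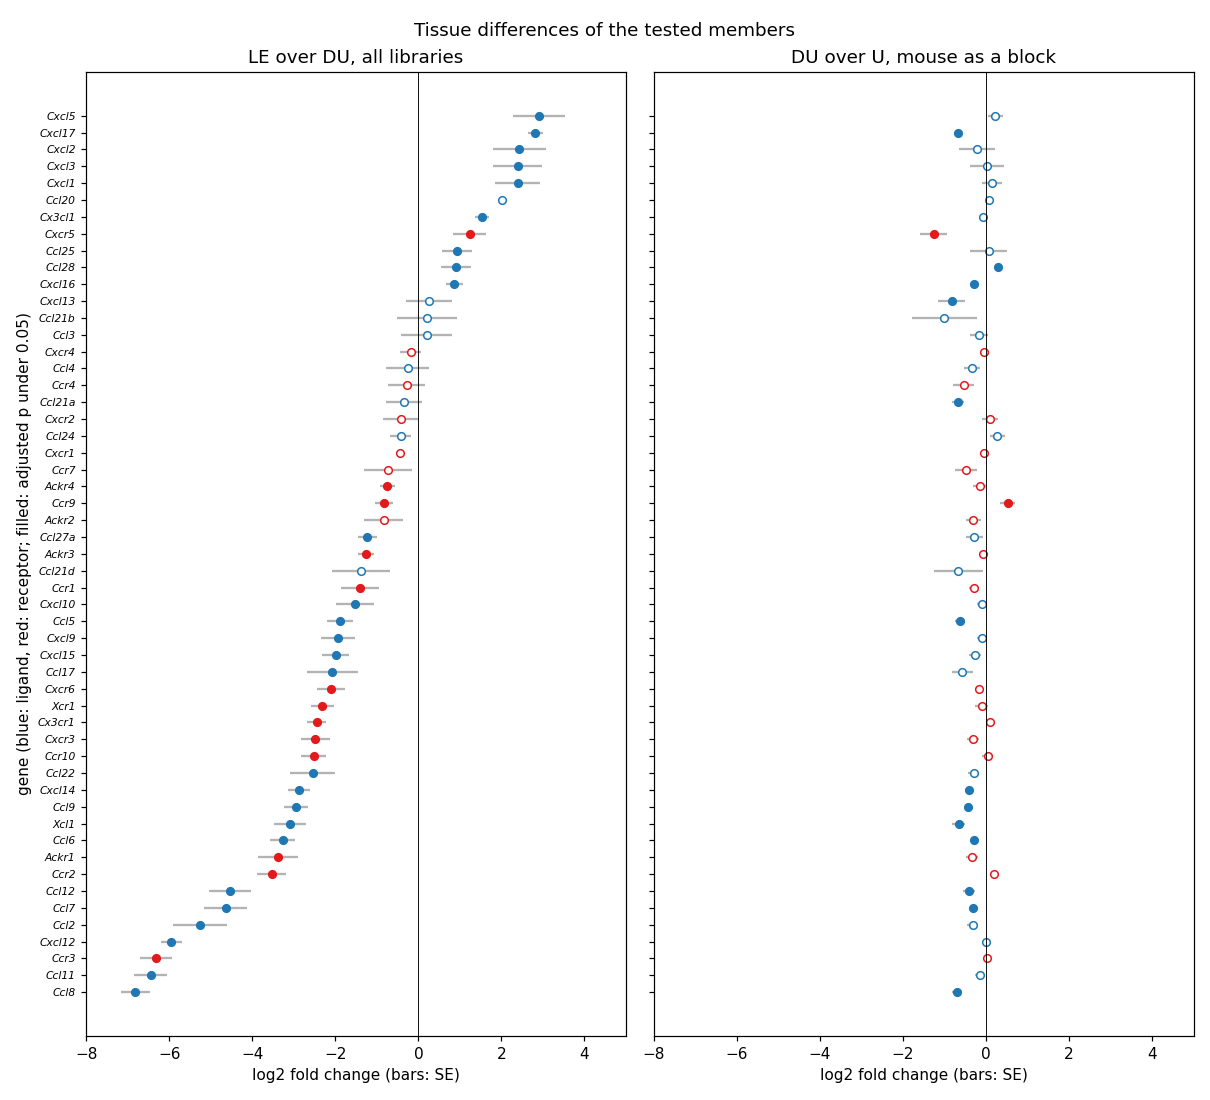
Log2 fold changes of tested members for LE over DU in all libraries (left) and DU over U with the mouse as a block (right), with bars for the SE (not drawn for Ccl20 and Cxcr1 in either panel), ligands in blue and receptors in red, filled where the adjusted p was under 0.05. Ccl8, Ccl11, Ccr3 and Cxcl12 lie furthest to the left at −6.82 to −5.95, and Cxcl5 and Cxcl17 furthest to the right at 2.91 and 2.82.

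Levels of the members in LE were compared with those in DU, as a mean over the 4 genotype and day groups. Of 54 members 40 were called, 10 higher and 30 lower in LE, against 66.7% of all genes tested (33.9% higher and 32.8% lower). Of the receptors 13 of 20 were lower in LE and 1 higher. Ccl8 averaged 0.37 CPM in LE and 39 CPM in DU (−6.82 ± 0.35, adjusted p = 3.2e-18 by edgeR), and Ccl11 0.38 CPM in LE and 88.9 CPM in DU (−6.44 ± 0.40, adjusted p = 5.21e-16). The eosinophil receptor Ccr3 averaged 0.282 CPM in LE and 28.3 CPM in DU (−6.33 ± 0.39), and Cxcl12 3.90 CPM in LE and 240.006 CPM in DU (−5.95 ± 0.26). Ccl8, Ccl11 and Cxcl12 were lower in LE in 13 of 13 mice with both tissues.

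The members higher in LE were led by Cxcl5 at means of 1202 CPM in LE and 470 CPM in DU (2.91 ± 0.63, adjusted p = 0.000138 by edgeR) and Cxcl17 at 271 CPM in LE and 98.7 CPM in DU (2.82 ± 0.17, adjusted p = 3.37e-16). Cxcl17 was higher in LE in 13 of 13 mice and Cxcl5 in 11 of 13. Cxcl2 (2.43 ± 0.64), Cxcl1 (2.39 ± 0.55), Cxcl3 (2.39 ± 0.59), Cx3cl1 (1.54 ± 0.17), Ccl28 (0.90 ± 0.36) and Cxcl16 (0.86 ± 0.21) followed, with Cxcl3 not called without KO mice 35 to 37 and Ccl28 not called without mouse 16 or 27 or with mouse blocks. Cxcr2 averaged 44.2 CPM in LE and 53.8 CPM in DU and was not called (−0.42 ± 0.43, adjusted p = 0.399). Since RNA was isolated in 1 batch per tissue, the batch and the tissue cannot be told apart. LE was also scraped from the horns. In LE against DU, 9 of 11 immediate early, 6 of 9 NF-kB pathway and 4 of 9 inflammatory cytokine genes were called higher and none lower. All genes tested were called higher at 33.9%. The part of handling in the higher Cxcr2 ligands of LE was not tested.

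DU was then compared with U, the piece that was not digested. RNA of each tissue was isolated in its own batch, so the batch and the dispase digestion cannot be told apart here. Over all libraries no member and none of 16782 genes was called by edgeR (0%), with 5 members and 4051 genes at an unadjusted p under 0.05, and DESeq2 and limma called 0 members. Comparing the pieces within the 13 mice that gave both, 16 members were called, 3 higher and 13 lower in DU, against 42.6% of all genes. Ccl8 averaged 39.5 CPM in DU and 62.8 CPM in U and was lower in DU in 12 of 13 mice (−0.70 ± 0.12, adjusted p = 0.00161). Cxcl17 averaged 113 CPM in DU and 157 CPM in U and was lower in 11 of 13 (−0.67 ± 0.10, adjusted p = 0.000866). Ccl28 was higher in DU in 12 of 13 mice, by 0.30 ± 0.08 on the log2 scale. The Cxcr2 ligands were not called in either direction, which does not show that they were equal.

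Of the 55 members tested, 29 were called in at least 1 of the 6 genotype comparisons, against 33.1% of all genes tested, and 26 in none. Those 26 include the abundant Ccl21a, Ccl8, Ccl2, Ccl11, Cxcl10 and Ccr2. Ccl1, Ccl27b, Ccl26, Ccr6 and Ccr8, the other 5 members, had too few counts to be tested in any tissue, Ccl26 having none in any library, and Ccl19 was tested in U alone of the 3 tissues. Ccl21b and Ccl27b share 100% of their 31-base words with other genes, and Ccl27a 57%, so single values of these copies are uncertain.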

How the data were processed

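The deposited tables hold 21706 genes by 59 libraries. Estimated counts, which need not be whole, and TPM values were made by the authors before deposit; per the submitters' processing notes the tools include kallisto 0.46.1 and the build is GRCm39; the annotation and filters are not given in the sources used here. Library totals ranged over 13468447 to 80312395 estimated counts in LE, 11305113 to 108002365 in U and 14053781 to 46214387 in DU.

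Estimated counts were rounded, filtered with filterByExpr (minimum count 10, total 15), scaled by TMM and tested with edgeR 4.0.16 quasi-likelihood F tests (robust) in R 4.3.3, in 1 fit per tissue or pair of tissues with the groups as terms, on 15601 genes in LE, 16232 in U, 16194 in DU, 16782 in DU with U and 16780 in LE with DU. P values were adjusted over all genes of a comparison, and members called at an adjusted p under 0.05. Standard errors were derived as the log2 fold change over the root of F. CPM uses TMM library sizes within a tissue, so fold changes between tissues can differ from ratios of the CPM printed.

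The members follow from their symbols. Members, gene lists, the rule for genes given in full (called members with at least 5 CPM, at most 12 per genotype comparison, and the 6 ligands and 4 receptors highest by TPM, with Cxcr2 and Ccr6) and tests were chosen with earlier results of these data known. Members named otherwise, such as Cxcl10, Ccl2 in DU and Cxcl14, were chosen after their values were seen. Promoters came from a RefSeq table on GRCm38.p6, and shared words of 31 bases were counted in GENCODE transcripts.

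Sample titles give mouse numbers. Deviations from group means correlated within mice with a median r of 0.431 over 13 mice for DU and U and 0.165 for LE and DU; since both members of a pair were taken from 1 animal, the tests between tissues were run again with mouse blocks. Within a group every library has its own mouse, and no 2 libraries agreed within counting noise. Alternatives were DESeq2 1.42.0, limma 3.58.1 on log2(TPM + 1), median-of-ratios scaling, no filter, a fit of the compared groups alone, each library or mouse left out, and LE without KO mice 35, 36 and 37. The tests were tried on simulated data first. The values of 1 member are not reported here.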

Additional observations from a re-analysis of the deposited data

Results flagged for a closer look

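Single libraries stood apart from the rest of their group for members described above; chance alone sets about 1 in 20 groups apart, and here it was 15 of 196 gene-and-group sets. In U at D0.5, control mouse 1 was lowest for Cxcr2 at 2.03 CPM (others 27.7 to 94.3), Ccr1 at 3.46 CPM (others 32.6 to 78.1) and Ccl3 at 0 CPM (others 1.83 to 7.60). It also had the lowest neutrophil marker sum there, 76.9 CPM, whose part in the result was not tested. In DU, control mouse 8 was highest for Ccl20 at 9.5 CPM (others 1.74 to 2.29) and Cxcl3 at 10.3 CPM (others 1.54 to 1.64), and control mouse 5 was lowest for Ccl21a at 8.57 CPM (others 58.5 to 76.4), both at D0.5. In LE at D0.5, control mouse 7 was lowest for Ccl6 at 0.081 CPM and Cxcl3 at 0.364 CPM, and KO mouse 25 was highest for Ccl8 at 0.844 CPM. KO mouse 21 had the highest Ccr2 in U at D0.5, 116 CPM, with the others at 49.7 to 52.7 CPM. KO mouse 33, whose Esr1 exceeded the controls, had the lowest Cxcl17 in U at D3.5, 2.66 CPM, with the others at 10.54 to 14.95 CPM. Near the limit of detection, Ccr6 was at 0.311 CPM in LE of KO mouse 22 at D0.5 and 0.0917 CPM in LE of control mouse 14 at D3.5, with no count in the rest of each group. Cxcl3 was at 0.137 CPM in U of control mouse 16 at D3.5, and Xcl1 at 0 CPM in LE of control mouse 15 at D3.5.

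The knockout effect differed between days, by an interaction test with edgeR, for 11 members in LE. The D3.5-minus-D0.5 difference was 5.60 for Ccl28, 1.69 for Cxcl16 and 1.38 for Cxcl17. It was −4.83 for Ccl17, −4.56 for Ccl6, −4.43 for Cxcl3, −3.64 for Ccr1, −3.64 for Cxcr5, −3.61 for Xcl1, −2.71 for Cxcl9 and −1.70 for Ackr4, all on the log2 scale. Without control mouse 14 the value of Cxcl9 was −0.42 (adjusted p = 0.772), without control mouse 11 that of Ccr1 was −2.16 (adjusted p = 0.385), and without KO mice 35 to 37 that of Ccl28 was 2.30 (adjusted p = 0.0046). Cxcl5 (−9.07) and Cxcl1 (−5.03) passed in LE only without KO mice 35 to 37. These mice were set apart by values of these data, so that is no separate test. In U the difference between days was 2.19 for Ccl28 and −4.23 for Ccl3. The LE-minus-DU difference of the knockout effect was 2.29 for Ackr3 at D0.5 and 4.05 for Cxcl15 at D3.5.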

How the results depend on the processing

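Only single-gene results called in the main test were followed under the alternatives. Of their values, 1617 kept direction and call, 168 lost the call and 0 changed direction. Of the losses, 141 came from leaving out 1 library or mouse. Gained calls could not enter these numbers, such as those of Cxcl5 and Cxcl3 in LE at D3.5 without KO mice 35 to 37. The counts of called members moved by over 1.5 times in these cases, apart from leaving out 1 library. With DESeq2, 13 members were called in U at D0.5 (8 in the main test), 4 for the LE-minus-DU difference in knockout effect at D0.5 (1) and 3 at D3.5 (1). With limma on TPM, 5 were called for the difference between days in U (2) and 4 for the difference between LE and DU at D0.5 (1). In a fit of the compared groups alone, 7 were called in DU at D0.5 (11). Without KO mice 35, 36 and 37, 4 were called in LE at D3.5 (7) and 7 for the difference between days in LE (11). With the mouse as a replicate block, 16 were called for DU against U (0) and 4 for the difference between LE and DU at D0.5 (1); within 1.5 times, 43 were called for LE against DU (40). No paired analysis was possible within a tissue because genotype and day groups share no mice. The causes were not tested.

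When 1 library or mouse was left out, the count of called members was 19 to 26 in LE, 6 to 17 in DU and 7 to 14 in U for knockout against control at D0.5, and 3 to 8 in LE, 0 in DU and 0 in U at D3.5. Between days it was 28 to 31 in KO LE, 25 to 31 in control LE, 27 to 31 in KO U and 28 to 33 in control U, with 7 to 17 for the difference between days in LE and 0 to 3 in U. It was 39 to 42 for LE against DU, 0 for DU against U, and 0 to 5 at D0.5 and 0 to 2 at D3.5 for the difference between LE and DU. TPM with limma shifted the median of all genes by 0.38 in LE at D3.5 and by 0.42 between days in KO LE. Depth limits low members: in LE at D0.5, 3 counts equal 0.0475 to 0.209 CPM.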
